A study of Mus musculus with 6 samples.

Results

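The genes described here carry out protein folding, translocation and quality control in the endoplasmic reticulum (ER). They were chosen by name as 41 symbols, with earlier results of these data known. All 41 were found among the 23474 genes of the liver expression table. They comprise 15 chaperones and folding enzymes, 3 sensors and transcription factors of the unfolded protein response, 7 genes of ER-associated degradation, and 16 subunits of the machinery that moves new proteins into the ER, the Sec61 channel (3 genes), the TRAP complex (4), signal peptidase (4) and oligosaccharyltransferase (5). Liver mRNA came from male C57BL/6J mice aged 17 weeks, fed from 5 weeks of age for 12 weeks either a high-fat diet (HFD, 3 libraries) or that diet with 1.5% (w/w) extract of Bangpungtongseong-san, an oriental herbal medicine (BT, 3 libraries). Both groups thus ate the high-fat diet, and each group held 10 mice. Whether each library is a single mouse or a pool is not stated in the labels, and a p-value here covers only the spread among libraries, which may be technical.

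A liver cell exports much of the plasma protein pool through the ER. A new secretory protein enters through the Sec61 channel, loses its signal peptide to signal peptidase, receives N-glycans from oligosaccharyltransferase, and is folded by Hsp70- and Hsp90-type chaperones, lectins and protein disulfide isomerases. A protein that fails to fold is sent back to the cytosol by the Sel1l-Syvn1 ubiquitin ligase and its partners. When unfolded protein builds up, the sensors IRE1 (encoded by Ern1), ATF6 and PERK raise chaperone and degradation genes, in part through ATF6 and XBP1 acting at the ER stress response element (ERSE). In bulk tissue, fewer cells of a type and less RNA per cell cannot be told apart.

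Expression was in FPKM, fragment counts scaled to transcript length and library size. Levels can be set side by side between genes only roughly, and the changes still went with length, as given below. Changes are BT minus HFD in log2(FPKM + 1); the added 1 shrinks the changes of weakly expressed genes. They were tested with limma in the 10476 genes whose mean reached 1 FPKM, adjusted over all of them at a threshold of 0.05. The lowest values put the depth at roughly 13.8 to 15.8 M fragments per library. The library codes in the labels differ by 1 letter between the diets, so a difference between library sets and the diet cannot be told apart. Hepatocyte markers summed to 40401 to 43000 FPKM in the BT libraries and to 19906 to 51180 in the HFD libraries, with Alb listed at 0 in HFD replicate 3. Without Alb the 5 others summed to 18386 to 23284 FPKM with HFD and 15304 to 16465 with BT, without overlap. Of the 5, 1 was called, Ttr, which was lower (-0.76, adjusted p = 0.0157). Apoa1 (-0.49) and Trf (-0.17) also differed downward, whereas Cps1 (0.58, adjusted p = 0.062) and Ahsg (0.10) differed upward. The list thus did not move in 1 direction. Stellate cell markers also summed lower with BT, 95.1 to 150.6 with HFD against 69.5 to 91.4 FPKM, with 1 of the 5 tested called lower (Col3a1, -1.36, adjusted p = 0.0354) and Lrat at 0. The part of these shifts in the changes below was not tested. Plasma and B cell markers, which matter here because antibody-secreting cells are rich in ER proteins, summed to 25.3 to 51.5 FPKM with HFD and 26.4 to 43.8 with BT. Most of the sum was Igkc. None of the 3 that could be tested was called (Igkc 0.03, Cd79b 0.17, Ighm -0.39). Jchain, below the filter and not tested, was at 0.869, 0.628 and 0.715 FPKM with HFD and 1.21, 1.13 and 1.11 with BT. Cd79a, also not tested, went the other way, at 0.718, 0.912 and 0.799 FPKM with HFD and 0.654, 0.564 and 0.624 with BT. The list thus went both ways. Of 9 markers of pancreatic acinar cells, another ER-rich type, 7 were at 0 in all libraries and the sums did not exceed 0.422 FPKM.

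ERSE is the element at which ATF6 and XBP1 raise chaperone and degradation genes, and such genes were chosen here by name. The share of members with a match is therefore not independent of that choice. ERSE, searched on both strands as CCAAT and CCACG with any 9 bases between them, was looked for in RefSeq windows (GRCm38.p6) running from 250 bases before to 50 bases after the annotated start site. Of the 32 members with a window, 9 (28.1%) held a match, against 37 of 27025 genes with a window (0.137%). These 27025 were not limited to the genes tested. The related ERSE-II, ATTGG and CCACG with any 1 base between them, was in 2 members (6.25%, against 0.0444% of genes), and TGACGTGG, the core of the unfolded protein response element, in none of the 32 (0.714% of genes). The stretches with matches that lie before the start site are printed 5′ to 3′ on the strand of the gene, since they carry the element at which ATF6 and XBP1 are known to act. Capitals mark ERSE (in Herpud1, ERSE-II), and CGTGG followed by ATTGG is the same element on the other strand.
Hspa5 at chr2:34771840-34772089, plus strand: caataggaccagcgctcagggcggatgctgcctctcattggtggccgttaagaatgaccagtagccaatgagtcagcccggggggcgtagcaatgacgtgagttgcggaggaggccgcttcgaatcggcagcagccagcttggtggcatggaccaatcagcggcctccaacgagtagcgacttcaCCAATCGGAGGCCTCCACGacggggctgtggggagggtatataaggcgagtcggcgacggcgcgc
Hsp90b1 at chr10:86705521-86705668, minus strand: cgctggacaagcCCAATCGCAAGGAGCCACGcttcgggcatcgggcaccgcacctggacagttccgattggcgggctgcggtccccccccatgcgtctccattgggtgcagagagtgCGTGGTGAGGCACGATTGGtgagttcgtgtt
Dnajc3 at chr14:118937815-118937857, plus strand: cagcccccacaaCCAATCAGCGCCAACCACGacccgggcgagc
Pdia6 at chr12:17266479-17266521, plus strand: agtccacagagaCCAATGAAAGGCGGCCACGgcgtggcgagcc
Calr at chr8:84847063-84847105, minus strand: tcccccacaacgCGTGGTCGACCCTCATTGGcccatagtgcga
Canx at chr11:50325788-50325830, minus strand: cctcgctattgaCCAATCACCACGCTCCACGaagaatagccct
Derl3 at chr10:75893230-75893272, plus strand: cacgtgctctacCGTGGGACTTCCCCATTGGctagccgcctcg
Creld2 at chr15:88819508-88819550, plus strand: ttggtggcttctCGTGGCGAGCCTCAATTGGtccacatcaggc
Syvn1 at chr19:6046520-6046562, plus strand: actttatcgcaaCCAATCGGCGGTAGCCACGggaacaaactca
Herpud1 at chr8:94386365-94386399, plus strand: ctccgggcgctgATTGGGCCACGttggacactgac
Hsp90b1 held 2 matches and the others 1. The ERSE-II match of Dnajb11 lay after its start site, from base 7 to base 17, and is not printed. A match of letters is a description and not a measured binding site. No window was in the table for Manf, Hyou1, Atf6, Derl1, Sec61a1, Ssr2, Spcs3, Sec11c and Ostc.

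The window of Xbp1, the member with the largest rise, is printed for comparison with that of Hspa5. It held none of these motifs, nor CCAAT or CCACG, the boxes that make up ERSE, on either strand. Of the 32 members with a window, 81.2% had CCAAT and 81.2% had CCACG (41.1% and 35.5% of all genes with a window).
Xbp1 at chr11:5520391-5520640, plus strand: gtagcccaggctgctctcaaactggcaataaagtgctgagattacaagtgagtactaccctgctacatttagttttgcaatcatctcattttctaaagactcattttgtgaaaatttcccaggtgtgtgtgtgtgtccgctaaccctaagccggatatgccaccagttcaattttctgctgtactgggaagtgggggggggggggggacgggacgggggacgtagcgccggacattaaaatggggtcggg

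Of the 41 members, 2 were higher and 4 were lower with BT, and 35 did not pass. Over all genes tested 6.01% were higher and 7.33% lower (13.3% in all), so the share of members called in each direction was near the background (2 of 41 and 4 of 41). With median-of-ratios scaling 4.38% of all genes were higher and 8.23% lower, and the same call was made for each of the 41 members. The higher members were both regulators, Xbp1 and Ern1, and the lower ones were all subunits of the translocation machinery, Sec61g, Sec61b, Dad1 and Sec11c. No chaperone, folding enzyme or degradation gene passed in limma, and at an unadjusted p under 0.05 there were 4 of 15 folding genes and 0 of 7 degradation genes (32.4% of all genes tested). The median change of the 41 was 0.10, against 0.07 over all genes tested, with 27 members above 0 and 14 below. Without BT replicate 1 none of the 41 passed, and over all genes only 1.65% did.

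**Figure D1:**
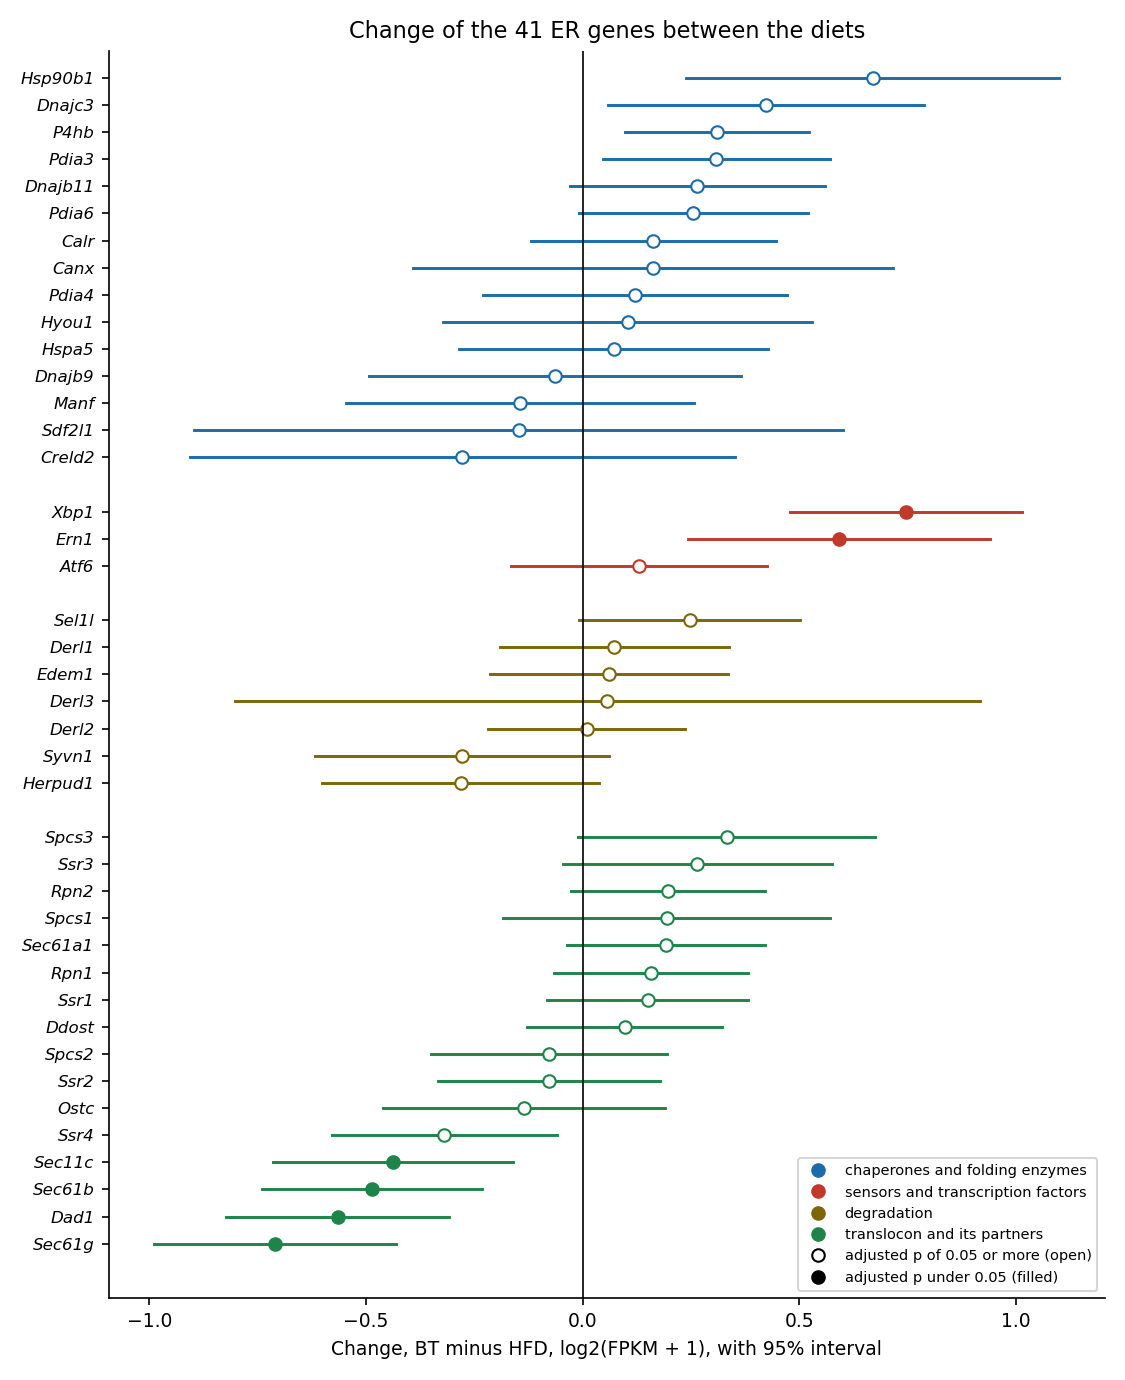
Change of each of the 41 genes between the diets (x axis, BT minus HFD, log2(FPKM + 1)), with limma's 95% interval as a line, grouped by role and ordered by size. Filled points are the 6 genes with an adjusted p under 0.05: Xbp1 and Ern1 lie to the right of 0, and Sec11c, Sec61b, Dad1 and Sec61g to the left.

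Xbp1 encodes the transcription factor whose mRNA is spliced by IRE1 during ER stress, and the table has 1 value for both splice forms. Its level was 94.2, 83.9 and 78.6 FPKM in the HFD libraries and 161, 140 and 132 FPKM in the BT libraries. The groups did not overlap. The mean rose 1.69-fold, a log2 change of 0.75 ± 0.12 (SE, 95% interval 0.48 to 1.01, limma adjusted p = 0.0111). Xbp1 passed in 5 of the 6 fits that left out 1 library and missed the threshold without BT replicate 1 (0.66, adjusted p = 0.0563).

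Ern1 encodes IRE1 alpha, the kinase and RNase that splices Xbp1 mRNA. It was low, at 4.56, 4.21 and 6.38 FPKM with HFD and 7.77, 8.87 and 7.44 FPKM with BT. HFD replicate 3 was the highest of its group and still lay below every BT library. The change was 0.59 ± 0.15 (adjusted p = 0.0402), but it passed in only 1 of the 6 fits that left out 1 library, the one without HFD replicate 3. Ern1 also missed the threshold with no filter on low values (adjusted p = 0.0908), and after removal of the dependence on transcript length and GC content in each library (0.36, adjusted p = 0.0827).

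Atf6, the sensor that is cut in the Golgi to release a transcription factor, did not pass. It was at 7.36, 5.60 and 7.35 FPKM with HFD and at 7.57, 6.96 and 7.85 FPKM with BT, so the groups overlapped. Its change was 0.13, with an interval of -0.16 to 0.43.

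The 15 chaperones and folding enzymes had a median change of 0.16, with 11 above 0 and 4 below. The diets were without overlap in 4 of them, against 39.3% of all genes tested and 15 of the 41 members. Hsp90b1, the Hsp90 of the ER lumen, came closest to the threshold. It was at 62.4, 35.8 and 50.6 FPKM with HFD and at 78.1, 69.7 and 85.7 FPKM with BT. All 3 BT libraries were above all 3 HFD libraries, and the change was 0.67 ± 0.19 (adjusted p = 0.0506). It passed with quantile normalization (0.74, adjusted p = 0.0376), with a filter of 5 FPKM, with robust empirical Bayes and with a replicate block (adjusted p = 0.0205). Of the 6 fits that left out 1 library it passed in 1, without HFD replicate 1 (0.85, adjusted p = 0.0224). Hsp90b1 missed with no filter (adjusted p = 0.114) and with the length and GC dependence removed (0.52, adjusted p = 0.0732). It also missed on rescaling to TPM, with median-of-ratios scaling, with a pseudocount of 0.1 and with no variance trend. A gene on the opposite strand, 1810014B01Rik, shares 15.7% of the exon bases of Hsp90b1, and without a stated strand setting their reads cannot be told apart.

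P4hb, the main protein disulfide isomerase, had the highest level of the 41 genes. It was at 352, 348 and 358 FPKM with HFD and at 433, 451 and 429 FPKM with BT. The groups were far apart for their spread, 353 ± 4.57 against 438 ± 11.7 FPKM (SD, n = 3 each), and the change was 0.31 ± 0.09 (adjusted p = 0.059). It passed on rescaling to TPM (0.40, adjusted p = 0.0433), with quantile normalization (0.49, adjusted p = 0.0187) and with a filter of 5 FPKM. P4hb missed with median-of-ratios scaling (0.24, adjusted p = 0.186) and with the length and GC dependence removed (0.24, adjusted p = 0.102). It passed in 0 of the 6 fits that left out 1 library.

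Calr, the calcium-binding lectin calreticulin, came next in level, at 281, 334 and 253 FPKM with HFD and 312, 315 and 341 FPKM with BT, which overlap. Its membrane-bound counterpart Canx was at 97.5, 44.9 and 55.3 FPKM with HFD and at 68.2, 68.8 and 72.8 FPKM with BT. HFD replicate 1 was the highest of all 6 libraries, and without it Canx differed by 0.48 (adjusted p = 0.0405) in place of 0.16. Hspa5, the Hsp70 chaperone BiP that is widely read as the marker of ER stress, was at 252, 195 and 181 FPKM with HFD and at 196, 206 and 256 FPKM with BT. The ranges almost coincided, and the change was 0.07 with an interval of -0.28 to 0.43 (adjusted p = 0.771).

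Among the other disulfide isomerases Pdia3, which works with the lectins, differed by 0.31 (adjusted p = 0.104), Pdia6 by 0.26 and Pdia4 by 0.12. Values of Pdia3 and Pdia6 did not overlap between the diets. Of the Hsp70 co-chaperones, Dnajc3 differed by 0.42 (adjusted p = 0.109), Dnajb11 by 0.26, Dnajb9 by -0.06 and Sdf2l1, their partner, by -0.15. Dnajc3 passed without HFD replicate 1 (0.59, adjusted p = 0.0306). The nucleotide exchange factor gene Hyou1 differed by 0.10, and the stress-induced secreted proteins Manf and Creld2 by -0.14 and -0.28. Intervals of these last 2 ran from -0.55 to 0.26 and from -0.91 to 0.35. Both include 0, so no change was detected in either direction.

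The HFD libraries differed among themselves more than the diets did in this role. Averaged over the 15 genes, log2(FPKM + 1) stood 0.22 above the mean of the 6 libraries in HFD replicate 1, 0.12 below it in HFD replicate 2 and 0.32 below it in HFD replicate 3. BT replicates 1 and 2 stood at 0.01 and -0.01, and BT replicate 3 at 0.22. Thus 1 HFD library lay as high as the highest BT library. The averages of the 3 regulators, which include the 2 called genes Xbp1 and Ern1, were -0.40 to -0.14 in the HFD libraries and 0.19 to 0.29 in the BT libraries. The difference between the roles was not tested.

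**Figure D2:**
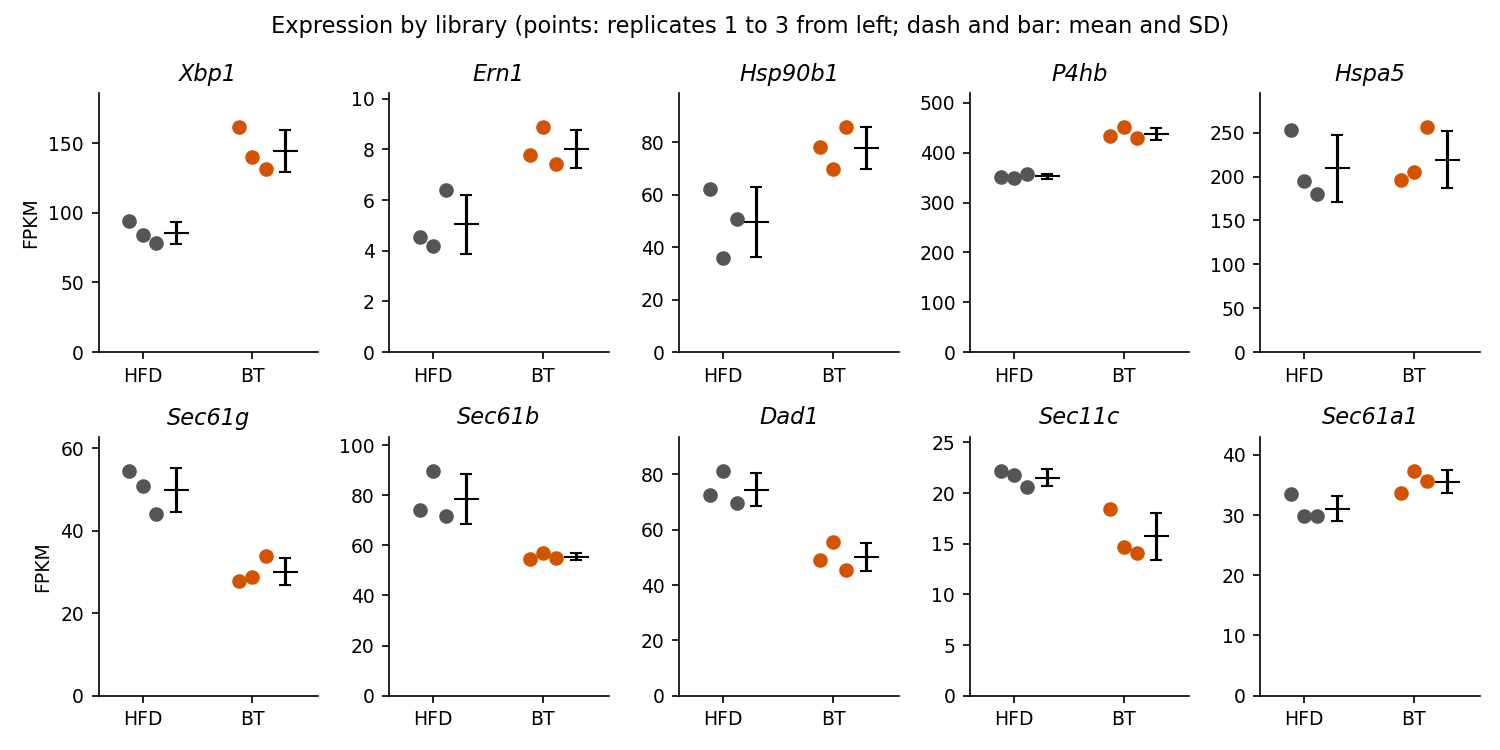
FPKM of 10 members in each library (points, replicates 1 to 3 from left to right), with the mean and SD of the 3 libraries beside them. Every axis starts at 0. Xbp1, Ern1, Hsp90b1, P4hb and Sec61a1 have all BT points above all HFD points, Sec61g, Sec61b, Dad1 and Sec11c have all BT points below, and the points of Hspa5 overlap.

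None of the 9 members with an ERSE match passed, and they spread on both sides of 0, from -0.28 to 0.67 with a median of 0.16. The 23 members with a window but no ERSE match had a median of 0.12, with 2 higher and 3 lower. Over all genes tested 13.3% passed, and with so few genes in each group no difference by motif was tested. Hspa5, Calr, Canx and Derl3 differed by 0.06 to 0.16. Hsp90b1, with 2 matches, and Dnajc3 had the largest positive differences among the 9, and Creld2 and Syvn1 both differed by -0.28. Herpud1, with the ERSE-II match, also differed by -0.28. Of 28 other genes with an ERSE match 6 could be tested, with a median of -0.22, and 3 of them were lower: Alg12 (-0.54), which adds a mannose in N-glycan assembly, Acacb (-0.54), an acetyl-CoA carboxylase, and Acnat2 (-1.06), an acyltransferase.

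**Figure D3:**
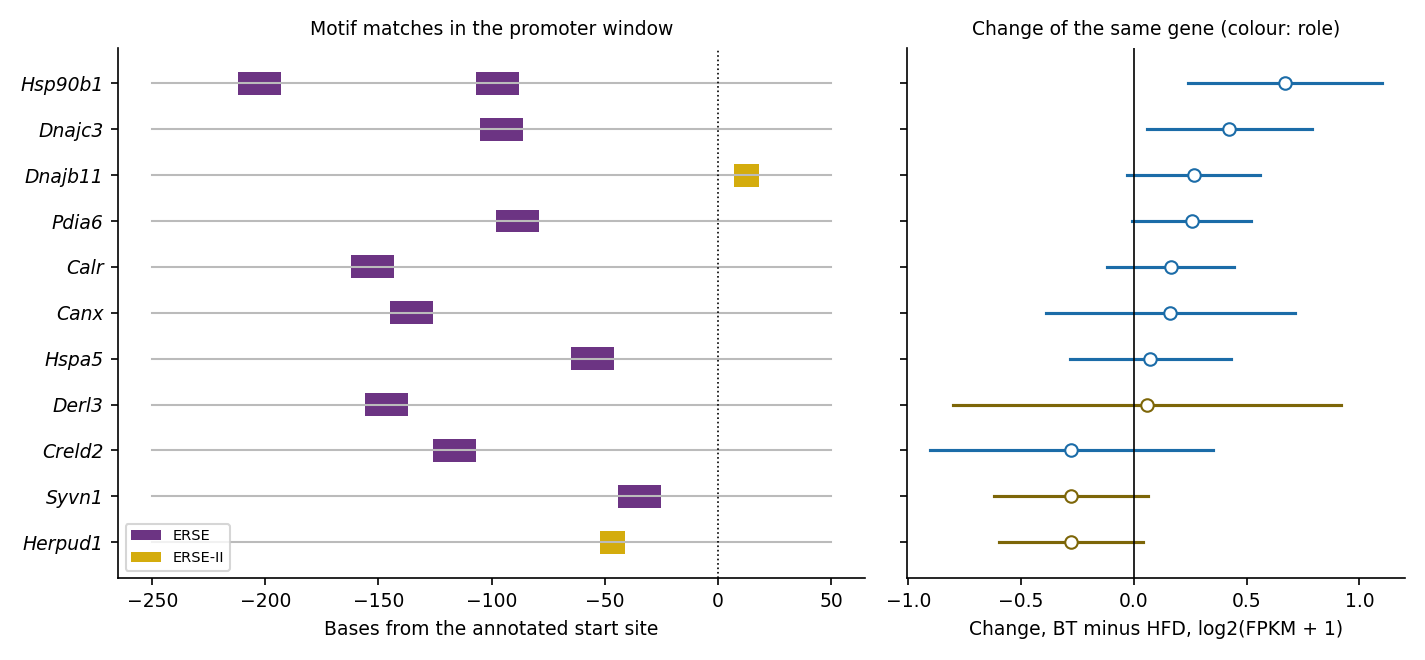
Left, position of ERSE and ERSE-II matches in bases from the annotated start site for the 11 members that have one; right, the change of the same gene with its 95% interval. Open points mark adjusted p of 0.05 or more: all 11 are open, and the intervals of 9 of them include 0.

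No gene of ER-associated degradation passed, and the median change of the 7 was 0.06. Herpud1, a membrane scaffold of the ligase complex, had the highest level, at 243, 196 and 257 FPKM with HFD and 169, 218 and 184 FPKM with BT. These overlap, and the difference was -0.28 ± 0.14 (adjusted p = 0.2). Sel1l, the adaptor of the ligase, was at 21.3, 17.5 and 18.7 FPKM with HFD and at 24.8, 22.1 and 21.8 FPKM with BT. Its groups did not overlap, with a change of 0.25 ± 0.11 (adjusted p = 0.164). Syvn1, the ligase itself, differed by -0.28 (adjusted p = 0.227), and was lower without HFD replicate 3 (-0.44, adjusted p = 0.0403). Edem1, which recognises trimmed glycans on misfolded proteins, differed by 0.06.

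The derlins form the channel through which misfolded proteins leave. Derl2 was at 47.1, 44.9 and 42.6 FPKM with HFD and at 43.4, 43.2 and 49.0 FPKM with BT, and its interval was -0.22 to 0.24. Derl1 differed by 0.07. Derl3, the stress-induced form, lay near the filter, at 2.38, 2.41 and 0.322 FPKM with HFD and 1.26, 1.06 and 2.70 FPKM with BT, and its interval ran from -0.80 to 0.92.

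In the Sec61 channel both small subunits fell, and the pore subunit did not pass. Sec61a1, which forms the pore, was at 33.4, 29.8 and 29.9 FPKM with HFD and at 33.7, 37.4 and 35.7 FPKM with BT, without overlap (0.19 ± 0.10, adjusted p = 0.216). Sec61g, the small clamp subunit (chromosome 11, 16500530 to 16508484, GRCm38), was at 54.6, 51.0 and 44.1 FPKM with HFD and at 27.7, 28.7 and 33.9 FPKM with BT. Every BT library was below every HFD library, and the gene fell by 0.71 on the log2 scale (SE 0.12, 95% interval -0.99 to -0.43, adjusted p = 0.0137). Sec61b, the other small subunit, was at 74.0, 89.8 and 71.7 FPKM with HFD and at 54.6, 56.9 and 54.9 FPKM with BT. It changed by -0.49 ± 0.11 (adjusted p = 0.0288). Sec61g passed in 4 of the 6 fits that left out 1 library, missing without BT replicates 1 and 2, and Sec61b in 3, missing without each BT library.

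In oligosaccharyltransferase, Dad1, a small membrane subunit, was at 72.4, 81.3 and 69.8 FPKM with HFD and at 49.1, 55.5 and 45.6 FPKM with BT. The groups did not overlap, and Dad1 changed by -0.57 ± 0.11 (adjusted p = 0.0191). It missed the threshold without BT replicate 1 (adjusted p = 0.087) and without BT replicate 3 (adjusted p = 0.062). Rpn2, a large subunit, was at 39.2, 33.8 and 38.4 FPKM with HFD and at 42.2, 43.0 and 42.7 FPKM with BT, all above the HFD range (0.20 ± 0.10, adjusted p = 0.199). Its partners Rpn1 and Ddost differed by 0.16 and 0.10, and the small subunit gene Ostc by -0.14.

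In signal peptidase, Sec11c, a catalytic subunit, was at 22.2, 21.7 and 20.6 FPKM with HFD and at 18.4, 14.7 and 14.1 FPKM with BT. It changed by -0.44 ± 0.12 (adjusted p = 0.0485), and it did not pass in any of the 6 fits that left out 1 library. Sec11c also missed the threshold with a pseudocount of 0.1, with no filter, on rescaling to TPM (-0.35, adjusted p = 0.127), with quantile normalization and with no variance trend. Spcs1, an accessory subunit, was at 58.1, 38.4 and 37.3 FPKM with HFD and at 52.0, 48.4 and 49.9 FPKM with BT. HFD replicate 1 was the highest of the 6, and without it Spcs1 passed (0.40, adjusted p = 0.0398). Glt8d1, on the opposite strand, shares 16.3% of the exon bases of Spcs1. Spcs3 was at 17.0, 11.5 and 12.7 FPKM with HFD and at 17.0, 16.0 and 19.1 FPKM with BT (0.33, adjusted p = 0.164), and it too passed without HFD replicate 1 (0.49). Spcs2 differed by -0.08.

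The TRAP complex assists the channel with certain signal peptides. Ssr4, its delta subunit, was at 78.0, 93.5 and 72.7 FPKM with HFD and at 64.0, 64.2 and 65.9 FPKM with BT. The groups did not overlap, and Ssr4 differed by -0.32 ± 0.11 (adjusted p = 0.0946). Ssr3 was at 66.6, 49.8 and 58.6 FPKM with HFD and at 67.0, 63.8 and 79.5 FPKM with BT, which overlap (0.27, adjusted p = 0.211). Ssr1 and Ssr2 differed by 0.15 and -0.08.

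The 4 genes that fell encode proteins of 68 (Sec61g), 96 (Sec61b), 113 (Dad1) and 192 (Sec11c) residues by GENCODE M21, among the smaller of the 41. Members encoding up to 150 residues numbered 5, of which 3 fell, whereas Ostc and Spcs1 did not pass. Among all 787 genes tested of that size, 37.1% were lower and 1.65% higher, with a median change of -0.38. Of 4365 genes encoding over 500 residues, 1.24% were lower and 8.71% higher, with a median of 0.18, and the 15 members of that size had a median of 0.16. The relation between size and change was thus present in the whole table. Across the 41 genes the change correlated with log2 of the encoded length at r = 0.58 (Spearman's rho 0.50), against r = 0.41 over 10221 genes. Both are descriptions across genes, which share the 6 libraries and are not independent replicates.

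When the dependence of each library on transcript length and GC content was removed (8.52% of genes then passed), the same 41 changes correlated with encoded length at r = 0.18. Before removal the 41 changes correlated with log2 of transcript length at r = 0.61. The lower value thus follows in part from the removal itself and is no separate result. Xbp1 still passed (0.70, adjusted p = 0.0208), and it was the only member that did. Sec61g stood at -0.43 (adjusted p = 0.0563), Dad1 at -0.24 (adjusted p = 0.155), Sec11c at -0.16 (adjusted p = 0.442) and Sec61b at -0.12 (adjusted p = 0.368). These values used the APPRIS principal transcript. With the protein-coding transcript of median length instead, incomplete models included (13.1% of genes passed), Sec61g (-0.63), Dad1 (-0.45) and Sec61b (-0.38) passed as lower and Xbp1, Ern1, Hsp90b1 and P4hb as higher.

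**Figure D4:**
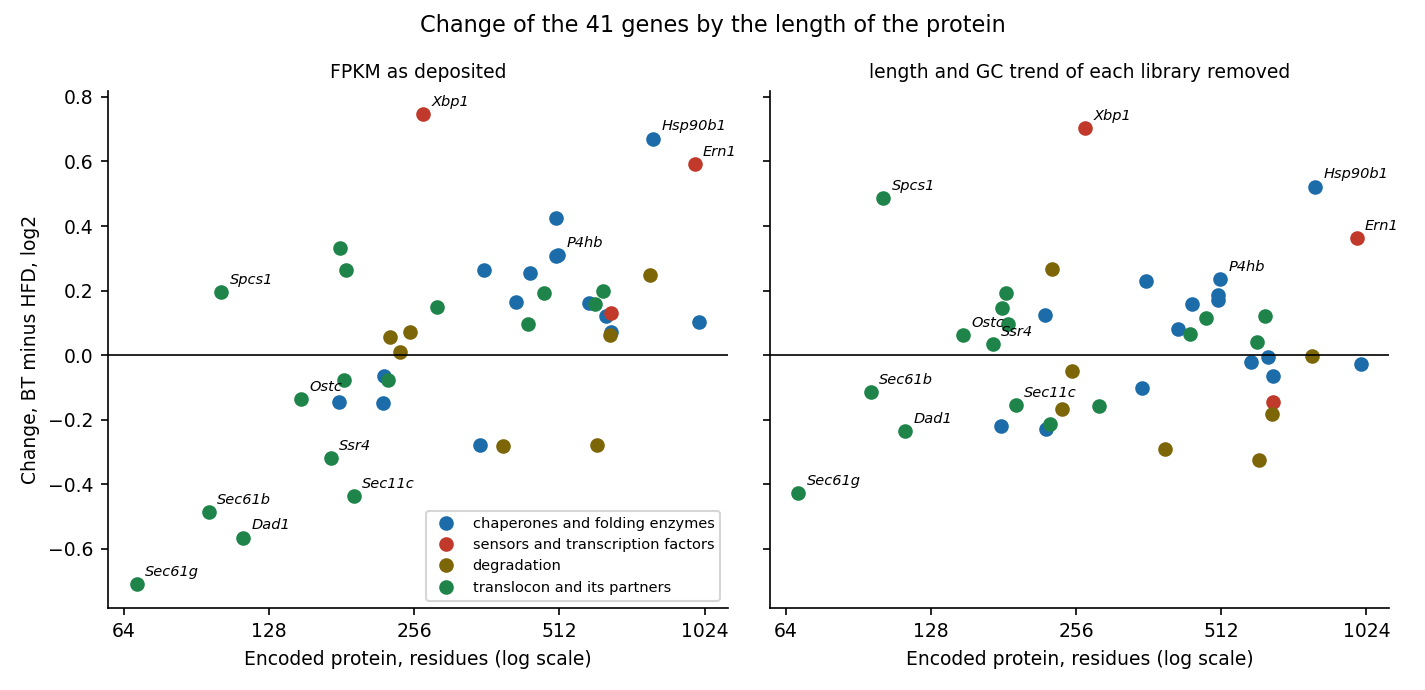
Change of each member (y axis, BT minus HFD, log2) against the length of the encoded protein (x axis, log scale), coloured by role, with FPKM as deposited on the left and after removal of its dependence on transcript length and GC content in each library on the right. On the left Sec61g, Sec61b and Dad1 sit at the lower left end of a rising cloud; on the right the cloud is flatter, Xbp1 stays near 0.7 and Sec61g remains the lowest point.

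Within a complex, a ratio of 2 subunits in the same library does not depend on how libraries are scaled. For each of the 4 complexes the smallest encoded subunit was set over the largest, a choice made by size after the changes had been seen. The ratio of Sec61g to Sec61a1 FPKM was 1.63, 1.71 and 1.48 with HFD and 0.824, 0.768 and 0.950 with BT. That of Dad1 to Rpn2 was 2.02 ± 0.330 with HFD and 1.17 ± 0.112 with BT (SD over 3 libraries each). Both ratios were lower in all 3 BT libraries than in any HFD library. As Sec61g and Dad1 had already been called lower, this restates their falls, and no test is given. The ratio of Ssr4 to Ssr1 also separated the diets, at 10.7 to 13.7 with HFD and 7.91 to 8.51 with BT. In signal peptidase Spcs1 over Spcs2 was 2.19 to 2.89 with HFD and 2.77 to 3.28 with BT, which overlap. With the length and GC dependence removed, the log2 changes were -0.43 for Sec61g and 0.12 for Sec61a1, -0.24 for Dad1 and 0.12 for Rpn2, 0.03 for Ssr4 and -0.16 for Ssr1, and 0.49 for Spcs1 and -0.21 for Spcs2. With the median coding transcript they were -0.63 for Sec61g and 0.09 for Sec61a1, -0.45 for Dad1 and 0.10 for Rpn2, -0.20 for Ssr4 and 0.12 for Ssr1, and 0.24 for Spcs1 and -0.06 for Spcs2. The order of Ssr4 and Ssr1 thus turned with the choice of transcript.

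**Figure D5:**
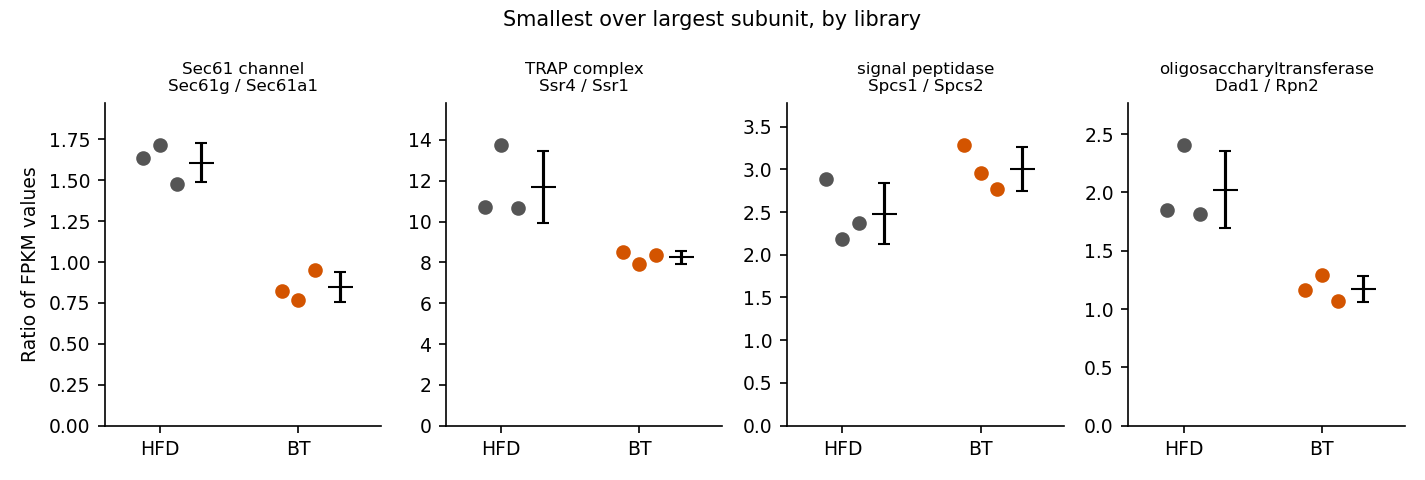
Ratio of FPKM of the smallest to the largest encoded subunit in 4 ER complexes, by library (points) with the mean and SD of each diet; axes start at 0. BT points lie below all HFD points for Sec61g over Sec61a1, Ssr4 over Ssr1 and Dad1 over Rpn2, and overlap them for Spcs1 over Spcs2.

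Other genes of the pathway were taken from 4 lists of 80 genes, of which 77 could be tested: 2 were higher and 8 lower. Over all genes tested 6.01% were higher and 7.33% lower. Among 21 further genes of targeting, translocation and glycosylation, 4 fell and none rose in the main fit. Ost4, the smallest oligosaccharyltransferase subunit at 37 residues, went from 63.9 ± 21.4 to 29.7 ± 1.91 FPKM (SD, n = 3 each), a change of -1.03 ± 0.21 (adjusted p = 0.0191). Tmem258, another small subunit of that enzyme, changed by -0.77 (adjusted p = 0.0228) and Srp14, a small protein of the signal recognition particle, by -0.50 (adjusted p = 0.0369). Tmem258 encodes 79 residues and Srp14 110. Of all genes tested that encode up to 150 residues, 37.1% were lower. Sec63, a long partner of the channel with 760 residues, also fell, by 0.49 (adjusted p = 0.04). With the length and GC trend removed, Ost4 (-0.65, adjusted p = 0.0399) and Sec63 (-0.75, adjusted p = 0.0436) still passed, and Tmem258 (-0.40) and Srp14 (-0.20) did not. With the median coding transcript Tmem258 passed too (-0.72, adjusted p = 0.0329). In that setting 3 genes of the list were higher, Srpr (0.48, adjusted p = 0.0457), Stt3a (0.38, adjusted p = 0.0454) and Sec61a2 (0.39, adjusted p = 0.0498). Over all genes 5.54% were then higher and 7.53% lower.

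Of 19 further folding enzymes 1 rose, the disulfide isomerase Pdia5 (0.38, adjusted p = 0.0376), against 6.01% of all genes tested. In the same list 2 fell, the prolyl isomerase Fkbp11 (-0.56, adjusted p = 0.0407) and the ER lumen protein Erp29 (-0.48, adjusted p = 0.0471), against 7.33%. None of 22 further degradation genes passed in limma (5 at an unadjusted p under 0.05, or 22.7%, against 32.4% of all genes tested). The smallest p was that of Os9, a lectin of the ligase complex (0.28, adjusted p = 0.0731). Among 15 other regulators of the unfolded protein response, Atf6b, a paralog of Atf6, rose from 6.45 ± 0.816 to 9.58 ± 0.552 FPKM (0.51, adjusted p = 0.0303). Ddit3, which encodes the pro-death factor CHOP, and Ppp1r15a, which encodes the stress-induced phosphatase subunit GADD34, both act downstream of PERK and fell, with changes of -0.76 (adjusted p = 0.0206) and -0.69 (adjusted p = 0.0431). Eif2ak3, which encodes PERK, was at 3.62 ± 0.466 and 3.26 ± 0.761 FPKM (adjusted p = 0.596), and Atf4 at 56.9 ± 2.83 and 48.5 ± 1.38 FPKM (adjusted p = 0.134). With the length and GC trend removed, Pdia5, Erp29, Atf6b and Ppp1r15a still passed, and Fkbp11 (-0.20) and Ddit3 (-0.43) did not. With the median coding transcript Ddit3 passed (-0.63, adjusted p = 0.0309) and Erp29 did not (-0.37, adjusted p = 0.0758). All 10 genes called in these lists missed the threshold without BT replicate 1. Of the 6 fits that left out 1 library, Ost4 passed in 4, Tmem258 and Ddit3 in 3, Fkbp11 in 2, and Pdia5, Erp29, Sec63, Srp14, Atf6b and Ppp1r15a in 1.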

How the data were processed

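Liver mRNA libraries (TruSeq, per the labels' protocols) of 3 HFD and 3 BT samples were analysed from 1 deposited table of FPKM values per Ensembl gene and library. Of tools, CASAVA 1.8.2, Cufflinks 2.1.1 and STAR 2.4.0 appear, per the submitters' processing notes, without their roles. Build, annotation and strand setting were not given in the sources used here. Titles gave the groups and replicate numbers, and no libraries were identical. Depth was estimated from what 1 fragment is worth in low genes, and no counts were used.

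From these values log2(FPKM + 1) was tested with limma 3.58.1 in R 4.3.3 (lmFit, then eBayes with a variance trend), two-sided, for the 10476 genes whose mean reached 1 FPKM, with Benjamini-Hochberg adjustment over all of them and 4 residual degrees of freedom. Each adjusted p is from such a fit, and 95% intervals are limma's. The script was checked on simulated data. Symbols, positions, lengths and GC content came from GENCODE M21 (GRCm38), which may not be the authors' build, and named 22671 of the 23474 identifiers. Promoter sequences were RefSeq's (GRCm38.p6).

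The members and lists were chosen with earlier results of these data known. All 41 members are accounted for. Values by library were given for members past the threshold and, in each role, for the 2 with the smallest p and the 2 with the highest mean level, with Hspa5, Canx, Derl3 and Sec61a1 added after their values were seen. Of each wider list, up to 4 genes past the threshold were named, or else the gene with the smallest p. Eif2ak3, Atf4, Srpr, Stt3a and Sec61a2 were added. 16 alternatives were planned: robust empirical Bayes, no variance trend, a replicate block, a pseudocount of 0.1, no filter, a filter of 5 FPKM, TPM, quantile and median-of-ratios scaling, subtraction of the dependence on transcript length and GC content within a library (natural splines, 5 degrees of freedom), and leaving out each of the 6 libraries. A second choice of transcript for that trend was added after seeing the data. Plots used Python 3.11.15 and matplotlib 3.10.9.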

Additional observations from a re-analysis of the deposited data

How the results depend on the processing

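The count of members called was 2 higher and 4 lower. It was 1 and 2 with no filter (17095 genes tested), 4 higher with a filter of 5 FPKM, 6 higher with quantile normalization, 1 higher and 0 lower with the length and GC trend removed, and 4 higher with that trend taken from the median coding transcript. Over all genes 1.17% were higher and 2.02% lower with no filter, 8.81% higher with a filter of 5 FPKM and 6.51% with quantile normalization. With the trend removed 3.62% were higher and 4.89% lower, and with the median coding transcript 5.54% and 7.53%. Of all genes 5.86% were higher on TPM rescaling, 6.53% with robust empirical Bayes and 8.2% with a replicate block. Leaving out 1 library gave 0 (without BT replicate 1) to 6 (without HFD replicate 1) higher and 0 to 4 lower. Of all genes, 0.468% were higher without BT replicate 1 and 5.26% without HFD replicate 1. Folding genes called higher, 0 in the main setting, were 2 with a filter of 5 FPKM, 1 on TPM rescaling, 4 with quantile normalization, 1 with robust empirical Bayes, 1 with a replicate block, 2 with the median coding transcript, and 0 to 3 on leaving out a library. Regulators called higher were 1 with no filter, 1 with the trend removed (median change 0.36) and 0 to 2 on leaving out a library. The median change of degradation genes was -0.17 with the trend removed and -0.0911 with the median coding transcript, and 0 or 1 of them (Syvn1, without HFD replicate 3) was lower on leaving out a library. Translocation genes called lower were 2 with no filter, 0 with the trend removed and 0 to 3 on leaving out a library, with 0 to 2 (Spcs1 and Spcs3, without HFD replicate 1) higher, and their median change was 0.10 on TPM rescaling. Wider pathway genes, 2 higher and 8 lower, were 1 and 0 with no filter, 1 higher with median-of-ratios scaling, 5 higher with quantile normalization, 4 lower with the trend removed, 5 and 5 with the median coding transcript, and 0 to 5 higher and 0 to 7 lower on leaving out a library. Over all genes the share called ran from 1.65% (without BT replicate 1) to 20.1% (filter of 5 FPKM). With no filter the adjustment covered more genes. Each left-out library removed 1 sample, and the share of all genes called was 13% without HFD replicate 1, 14.7% without HFD replicate 3 and 1.65% without BT replicate 1. The cause of these shifts was not tested. None of the 41 changed sign while called. Same-numbered libraries of the diets deviated together at correlations of 0.163, 0.0972 and 0.147, and each correlated best with its own number, a hint from the data and not from the labels. The replicate block gave 3 members higher and 4 lower, against 8.2% and 9.06% of all genes.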
